A study of Mus musculus with 26 samples.

Results

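Shared promoter peaks are stretches of accessible chromatin at gene starts that were called in frontal cortex of both Adnp-mutant (HET) and wild-type (WT) mice. They were chosen by the called positions in both lists, as peaks of the WT list that overlapped a peak of the HET list by at least 1 bp and that overlapped the window 1 kb either side of a gene start. The rule found 9028 such peaks, which were 46.8% of the 19272 WT peaks and 95.5% of the 9450 WT peaks in promoter windows. The HET list held 30862 peaks, 11054 of them in promoter windows, and 82.2% of these overlapped a WT peak. The groups were HET mice, which carry an Adnp frameshift on 1 allele, and WT mice, and the RNA came from littermates described as adolescent. RNA was sequenced from 7 HET and 7 WT frontal cortices. ATAC-seq, in which a transposase cuts DNA that is not wrapped in nucleosomes, was deposited as 1 merged peak list per genotype, so peak differences between the genotypes have no replicate check. The labels name no promoter or cell type that limits the allele, and the tissue was taken in bulk.

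A promoter is the stretch around a gene start where RNA polymerase II and general transcription factors assemble, and at active genes it is kept clear of nucleosomes, which the transposase reads as an open peak. Most promoters of broadly used genes lie in CpG islands, which stay unmethylated and open in many cell types. Promoters of tissue-restricted genes are more often poor in CpG and rely on distant enhancers. ADNP, the product of the mutated gene, is a zinc-finger homeodomain protein that works with the chromatin remodeller CHD4 and with heterochromatin protein HP1.

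To show what these promoters are made of, 6 stretches upstream of genes at shared promoter peaks are printed, from RefSeq on GRCm38.p6, all on the plus strand and ending before the gene start of the count tables. Capitals mark matches, on either strand, to the 11 motifs named further on. The stretch of Sec24d (chr3:123267246-123267454), the gene with the steadiest rise, holds 1 CCAAT box and 1 GC box.
Sec24d: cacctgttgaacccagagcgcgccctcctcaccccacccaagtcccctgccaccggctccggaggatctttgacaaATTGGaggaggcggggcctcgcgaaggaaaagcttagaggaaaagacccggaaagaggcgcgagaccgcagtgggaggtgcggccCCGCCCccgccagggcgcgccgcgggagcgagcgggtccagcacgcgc
The stretch of Cebpb (chr2:167688665-167688914), which fell, holds 5 GC boxes, of which a pair overlaps.
Cebpb: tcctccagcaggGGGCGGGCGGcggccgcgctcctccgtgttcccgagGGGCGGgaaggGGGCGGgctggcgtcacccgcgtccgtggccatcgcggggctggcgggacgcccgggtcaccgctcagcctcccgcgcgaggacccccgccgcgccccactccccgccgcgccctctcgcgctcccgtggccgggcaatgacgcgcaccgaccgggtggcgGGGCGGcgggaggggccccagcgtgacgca
The stretch of Dusp6 (chr10:99262981-99263230), the activity-regulated gene that fell, holds 1 CCAAT box.
Dusp6: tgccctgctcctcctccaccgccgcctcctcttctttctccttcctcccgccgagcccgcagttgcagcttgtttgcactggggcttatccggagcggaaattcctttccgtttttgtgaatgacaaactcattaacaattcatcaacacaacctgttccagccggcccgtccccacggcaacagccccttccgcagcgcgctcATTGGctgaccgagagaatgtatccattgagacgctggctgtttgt
The stretch of Arpc3 (chr5:122391628-122391877), which fell and whose HET peak was the narrower one, holds 1 ETS site.
Arpc3: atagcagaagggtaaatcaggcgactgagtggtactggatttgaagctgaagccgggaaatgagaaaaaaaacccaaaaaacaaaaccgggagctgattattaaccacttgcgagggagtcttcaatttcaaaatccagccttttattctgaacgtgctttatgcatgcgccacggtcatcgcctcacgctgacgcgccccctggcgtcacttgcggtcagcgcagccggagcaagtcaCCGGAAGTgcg
The stretch of Tdrkh (chr3:94412994-94413243), a germline gene with a shared peak, holds 5 CCAAT boxes and 1 GC box.
Tdrkh: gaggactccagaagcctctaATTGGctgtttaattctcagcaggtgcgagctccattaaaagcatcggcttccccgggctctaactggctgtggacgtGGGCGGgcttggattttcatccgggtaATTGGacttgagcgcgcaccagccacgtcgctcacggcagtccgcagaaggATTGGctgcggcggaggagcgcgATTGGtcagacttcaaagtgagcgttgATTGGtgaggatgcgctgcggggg
The stretch of Rnf145 (chr11:44518706-44518955), whose WT peak was cut into 3 HET peaks, holds 1 E-box.
Rnf145: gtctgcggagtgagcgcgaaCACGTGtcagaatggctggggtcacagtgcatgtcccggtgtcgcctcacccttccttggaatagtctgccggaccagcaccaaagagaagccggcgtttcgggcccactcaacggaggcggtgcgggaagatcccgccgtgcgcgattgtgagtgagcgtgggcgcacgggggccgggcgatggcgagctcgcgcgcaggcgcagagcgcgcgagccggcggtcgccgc

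These stretches differed in their content of G and C, and Cebpb was the richest at 81.6% with 41 CpG dinucleotides in 250 bases. Arpc3 was the lowest at 51.2%, with 17 CpG dinucleotides. The HET and the WT peak both covered all printed bases of Sec24d, Dusp6, Tdrkh and Rnf145. For Cebpb the HET peak covered 250 bases and the WT peak 246. For Arpc3 the HET peak covered 130 of the 250 bases, against all 250 under the WT peak.

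Across the genome, most stretches upstream of gene starts at shared promoter peaks had the CpG ratio of CpG islands. RefSeq gave 32817 windows of 250 bases upstream of a gene start, with chromosome 18 not used here, and 8626 of them overlapped a shared promoter peak. The median GC content of these windows was 62.4%, against 58.0% in 1671 windows at HET promoter peaks without a WT peak, 48.4% in 21515 windows without a peak and 52.4% over all windows. The CpG ratio, observed over expected from the C and G content, had a median of 0.80 at shared peaks, 0.63 at HET peaks alone and 0.23 without a peak. A ratio of at least 0.6, a usual mark of CpG islands, was found in 80.9% of windows at shared peaks, 54.0% of windows at HET peaks alone and 12.4% of windows without a peak.

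Most motifs of promoter-bound factors were also more frequent in windows at shared peaks than in all windows. The GC box (GGGCGG, bound by the SP family) lay in 65.6% of windows at shared peaks, against 32.7% of all windows. The ETS site (CCGGAAGT) lay in 7.37% against 2.88% of all windows, and the NRF1 site (GCGCATGCG) in 4.03% against 1.44%. The cAMP response element (TGACGTCA, bound by CREB) lay in 3.54% against 1.55%, the E-box (CACGTG) in 9.33% against 6.02% and the YY1 site (AAGATGGC) in 2.56% against 1.56%. The SBS core (ACTACAATT, bound by the zinc-finger factor ZFP143) lay in 0.684% against 0.366%. The CCAAT box (CCAAT, bound by NF-Y) differed less, with 38.7% against 33.8%. The CTCF core (AGGNGGCAG) lay in 3.15% against 3.03%. The TATA box (TATAAA) went the other way, with 4.56% at shared peaks against 12.4% of all windows. So did the AP-1 site (TGANTCA, bound by FOS and JUN), with 2.91% against 6.75%. Both strands were searched, only GC boxes overlapped each other in the printed stretches, and a match is a run of letters and not a bound site. Motifs of G and C and motifs of A and T differ with the base composition given above, and its part in these shares was not tested.

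The peaks sat on the gene start. Of the 9028 shared promoter peaks, 7310 (81.0%) covered the nearest gene start in the WT list. The median peak centre lay 40 bp downstream of the start in the HET list and 46.5 bp downstream in the WT list. At the start itself 84.5% of the peaks were covered in HET and 81.0% in WT. At 500 bp upstream the cover was 16.9% in HET and 13.9% in WT, and at 500 bp downstream 26.3% in HET and 23.8% in WT. The cover thus reached further into the transcribed side in both lists. Of the peaks, 6550 lay in the window of 1 gene start, 2273 in the windows of 2 and 205 in those of 3 or more. By chromosome, 8758 peaks lay on autosomes, 268 on the X chromosome and 2 on the mitochondrial genome.

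**Figure D1:**
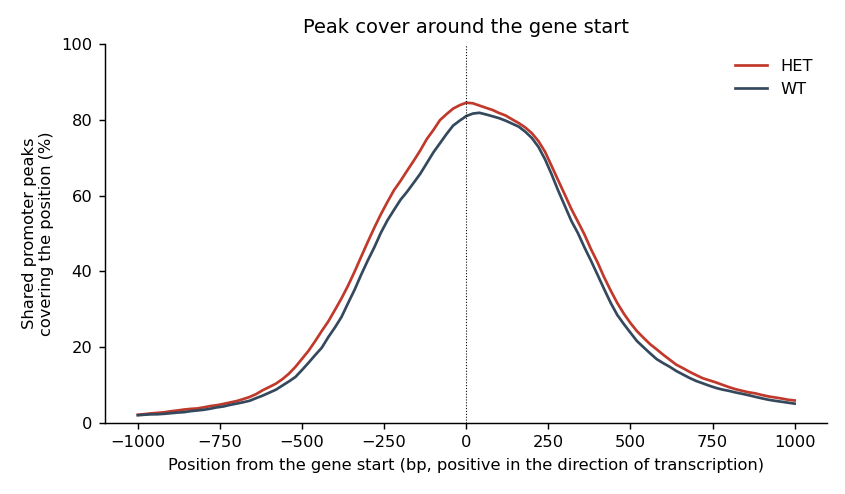
Percent of the 9028 shared promoter peaks that cover each position (y axis) by distance from the nearest gene start in bp (x axis, positive in the direction of transcription), for the HET and the WT list. Both curves peak near the start, at 84.5% in HET and 81.0% in WT at position 0, and the HET curve lies above the WT curve on both sides.

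Peaks were somewhat wider in the HET list. The median width was 681.5 bp in HET (quartiles 528 and 848) and 626 bp in WT (quartiles 469 and 794). Per peak, HET width over WT width had a median of 1.07, with quartiles of 0.93 and 1.26 and a full range of 0.13 to 9.01. The HET peak was wider at 5689 peaks (63.0%), equal at 30 and narrower at 3309. Widths within 10% of each other were found at 3100 peaks. The HET peak was at least 2 times as wide at 363 peaks and at most 0.5 times as wide at 175 peaks. The overlap had a median of 560 bp, and 3459 WT peaks (38.3%) lay wholly inside HET peaks. Widths in the lists went together, with a Spearman correlation of 0.69 over 9028 peaks that share the same DNA.

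The extra width lay more on the upstream side. Over the 8874 peaks with 1 partner each way, the HET edge lay further upstream than the WT edge at 62.7% of peaks and further downstream at 56.2%. Over all these peaks, those with a shorter HET edge included, the median shift was 20 bp on the upstream side (quartiles -20 and 85) and 11 bp on the downstream side (quartiles -43 and 83). A like widening was measured outside promoters, where the 8152 shared peaks had median widths of 481 bp in HET and 427 bp in WT and a median ratio of 1.08. Promoter peaks found in a single list were narrow, with medians of 347 bp for HET peaks without a WT peak and 360 bp for the 422 WT promoter peaks without a HET peak. The rule used both peak lists, so widths and overlaps are descriptions with no test. The number of peaks differed between the lists, and the part of sequencing depth and caller settings (not given in the sources used here) in the widths was not tested.

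**Figure D2:**
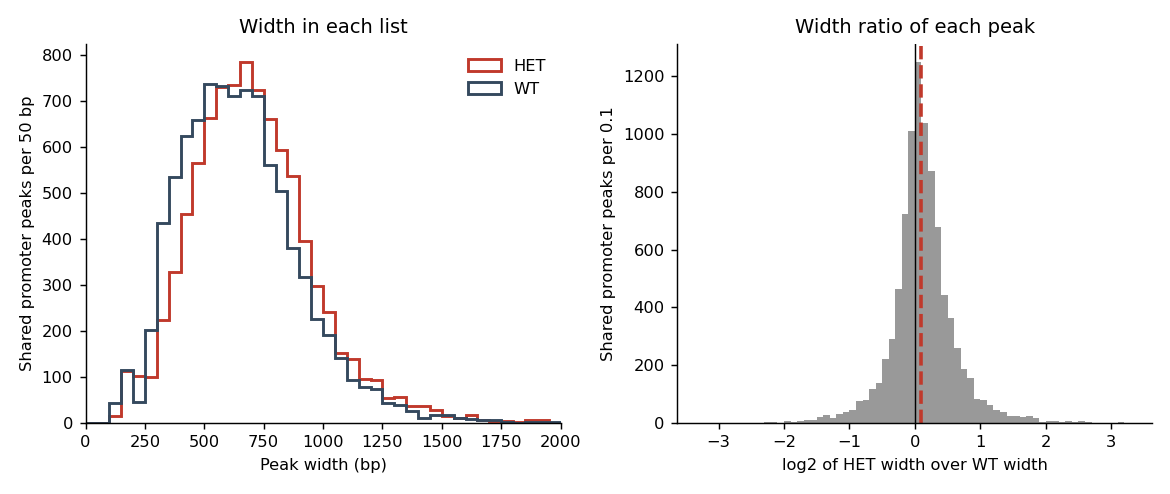
Left, number of shared promoter peaks (y axis) by width in bp in bins of 50 (x axis, cut at 2000) for the HET and the WT list. Right, number of peaks (y axis) by log2 of HET width over WT width (x axis), with a solid line at 0 and a dashed line at the median. The HET curve is shifted to larger widths (median 681.5 bp against 626 bp in WT), and 63.0% of peaks lie right of 0.

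The extremes show how far single promoters differed. The widest were 2 mitochondrial peaks of 6364 and 5248 bp, each with the same width in HET and WT. Each lay in the windows of many mitochondrial gene starts, so they are not single promoters. Next in WT width came peaks at CT010467.1 on chromosome 17 (3680 bp in HET, 3646 bp in WT), at the cytokine receptor gene Crlf2 (2068 bp in HET, 1978 bp in WT) and at 2410080I02Rik (2353 bp in HET, 1962 bp in WT). The largest differences per peak were mostly at merged or split peaks. At the promoter between Rcor3, a corepressor gene, and Gm10516 on chromosome 1 a HET peak of 2151 bp faced 2 WT peaks of 360 and 1069 bp. At Pfkp, a phosphofructokinase of glycolysis, a HET peak of 1899 bp faced WT peaks of 362 and 824 bp. At Lrrc3b a HET peak of 1912 bp faced WT peaks of 422 and 920 bp. In the other direction, HET peaks of 830 and 795 bp faced a WT peak of 1903 bp at Sp3, a GC-box binding factor, and HET peaks of 689 and 449 bp faced a WT peak of 1737 bp at the clock gene Per2. Among peaks with 1 partner each way, the largest loss in HET was at Pdzrn3 (234 bp in HET, 1272 bp in WT), and the largest gain, named after its values were seen, was at the septin gene Sept8 (1505 bp in HET, 286 bp in WT).

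RNA of the genes named at these nuclear peaks did not pass the test. Levels are given as CPM, counts scaled to library size, with the SD over 7 libraries per genotype. Pfkp measured 272 ± 30.7 CPM in HET, against 298 ± 43.0 CPM in WT. Per2 measured 34.5 ± 9.58 CPM in HET, against 38.2 ± 14.3 CPM in WT. Pdzrn3 had the largest RNA difference among them, with 21.6 ± 11.3 CPM in HET, against 37.2 ± 13.6 CPM in WT (log2 fold change -0.79, adjusted p 0.239 in edgeR). The sign turned, at 0.14 on the log2 scale, with the excitatory marker level of each library as a covariate, an alternative added after seeing the data.

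Few peaks were split or merged between the lists. A WT peak was overlapped by 2 or more HET peaks at 84 promoters (0.930%), 83 of them with 2 HET peaks and 1 with 3. The split WT peaks were wide, with a median of 1060 bp, and their HET parts summed to a median of 911.5 bp with gaps of 3 to 802 bp. In the other direction, 36 HET peaks each spanned 2 shared WT peaks, 72 WT peaks in all (0.798%). The spanning HET peaks had a median width of 1105 bp, and the WT peaks below them 433.5 bp. Outside promoters 48 shared peaks (0.589%) were split.

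The peak with most parts lay at Rnf145, which encodes a ubiquitin ligase of the endoplasmic reticulum. The WT peak (chr11:44518652-44519952) was 1301 bp wide, and the HET list had peaks of 638, 141 and 904 bp there. At the shared promoter of Pkp4, a plakophilin of cell junctions, and Ccdc148 the WT peak of 1604 bp faced HET peaks of 939 and 815 bp. Gucy1a2, a subunit of soluble guanylate cyclase, had a WT peak of 1317 bp split in 2. Conversely, a HET peak of 1585 bp at B230319C09Rik spanned WT peaks of 982 and 522 bp, and a HET peak of 1925 bp on chromosome 12 spanned WT peaks of 1034 and 454 bp near Gm24859. A pair of WT peaks at Gm14978 (1347 and 199 bp) was joined by a HET peak of 412 bp, while the wider of them was also split. The RNA of Rnf145 measured 104 ± 7.68 CPM in HET, against 103 ± 5.50 CPM in WT. Of 94 tested genes at split peaks 0 rose and 1 fell, and of 49 at merged peaks 0 rose and 1 fell, in edgeR's test. An unadjusted p below 0.05 was found for 24 and 13 of these genes, and DESeq2, a second count test run as an alternative, called 1 rise and 7 falls at split peaks and 1 rise and 4 falls at merged peaks. Over all tested genes 0.970% passed edgeR's test, 22.2% had an unadjusted p below 0.05 and DESeq2 called 8.38%.

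At the edge of the rule, the smallest overlap of a member was 3 bp, at Rtp4, and 22 members overlapped by less than 50 bp. The closest WT promoter peaks left out, at Ripply2 and Gm5577, stood 4 bp from a HET peak. The member farthest from a gene start, at Eno2, had its near edge at 999 bp, and the nearest shared peak outside the window stood at 1001 bp.

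Genes at shared promoter peaks made up most of the cortex transcriptome. Of 55487 annotated genes 11618 had such a peak in their window, and 10004 of these had enough counts to be tested. They made up 75.8% to 76.9% of the counts in every library, mitochondrial genes included. For nuclear genes alone the share was 70.5% to 72.3%. The median level of the 10004 tested genes was 22.9 TPM in HET and 21.9 TPM in WT. TPM, a level per length that sums to the same total in each library, was computed from the counts and exon lengths. It lacks the scaling of the RNA test, so small HET and WT differences in TPM can be opposite in sign to log2 fold changes. Tested genes with a HET promoter peak alone had medians of 13.1 TPM in HET and 12.03 TPM in WT, those with a WT peak alone 12.1 TPM in HET and 11.8 TPM in WT, and those without a promoter peak 3.38 TPM in HET and 2.99 TPM in WT. The share of tested genes with a shared peak was 18.7% in the lowest of 10 equal groups by WT level, 60.6% in the fifth and 75.6% in the highest, so that it flattened above the middle of the range.

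Genes with the widest peaks had somewhat higher median levels than genes with the narrowest. The median level was 19.2 TPM in HET for the fifth of genes with the narrowest HET peaks and 27.6 TPM in HET for the fifth with the widest. In WT the same medians by WT width were 18.6 and 25.8 TPM. Over 10004 genes, which share libraries and in part share peaks, the Spearman correlation of width and TPM was 0.080 in HET and 0.090 in WT. Peaks with tested gene starts on both strands numbered 1531 (17.0%) and were wider, with medians of 753 bp in HET and 708 bp in WT, against 674 bp in HET and 619 bp in WT for those with starts on 1 strand.

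**Figure D3:**
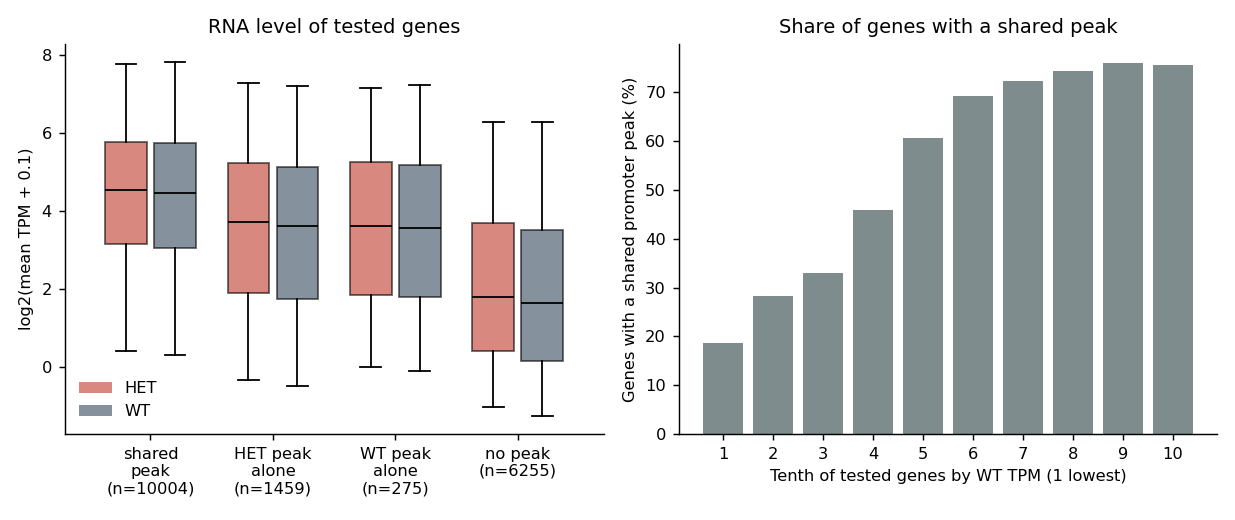
Left, log2 of mean TPM plus 0.1 (y axis) of tested genes by promoter peak class (x axis), HET boxes beside WT boxes; lines are medians, boxes the quartiles and whiskers the 5th and 95th percentiles over genes. Right, percent of tested genes with a shared promoter peak (y axis) in 10 equal groups by WT TPM (x axis). Genes at shared peaks had the highest median (22.9 TPM in HET, 21.9 TPM in WT), and the share ran from 18.7% in the lowest group to 75.6% in the highest.

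The HET libraries held 33280785 to 47079906 counts each, and the WT libraries 32814841 to 48291175. Summed levels of 5 excitatory neuron markers ran from 819 to 5272 CPM in HET and from 2300 to 6254 CPM in WT, with HET 4 and WT 4 lowest in their genotypes. On the first principal component of all tested genes (39.1% of the variance), 4 of the 7 WT libraries lay within the range of the HET libraries, with WT 4 the lowest of the WT libraries. Markers of thalamus (78.0 to 595 CPM in HET, 78.3 to 182 CPM in WT), striatum (42.7 to 936 CPM in HET, 72.4 to 650 CPM in WT) and choroid plexus (10.1 to 718 CPM in HET, 7.18 to 408 CPM in WT) varied between libraries of 1 genotype. By edgeR 0 of 35 markers passed the test, with 8 at unadjusted p below 0.05 and 1 called by DESeq2. The shares over all tested genes, in the same order, were 0.970%, 22.2% and 8.38%. Markers of cortical neurons and glia were present in each library. The part of the thalamus, striatum and choroid plexus markers in the RNA results was not tested. In bulk tissue fewer cells of a type and less RNA per cell cannot be told apart.

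The peak rule used no RNA values, so gene by gene tests of RNA do not reuse the values of the rule. Members and gene lists were chosen with earlier results of these data known. Of the 10004 tested genes at shared promoter peaks, 83 changed (0.830%), 37 up and 46 down in HET, at an adjusted p below 0.05 over all genes in a two-sided test (edgeR, quasi-likelihood). Over all 18050 tested genes 175 changed, which is 0.970%, with 0.587% up and 0.382% down. At shared peaks 0.370% rose and 0.460% fell. The share of 0.830% is near the background of 0.970%. An unadjusted p below 0.05 was found for 22.2% of all tested genes, and DESeq2 called 8.38% of them. Genes with a HET promoter peak alone had 17 rises and 5 falls among 1459 (1.51%), genes with a WT peak alone 0 calls by edgeR among 275, with 70 at unadjusted p below 0.05 and 31 calls by DESeq2, and genes without a peak 52 rises and 18 falls among 6255 (1.12%). The median log2 fold change at shared peaks was -0.01, against 0.02 over all tested genes.

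The number of calls depended on single libraries. Without WT 4 edgeR called 934 genes at shared peaks, without HET 6 it called 646, and without any 1 of the other libraries between 1 and 113. All of the 83 genes remained called without WT 4, and likewise without HET 6, while Sec24d was the single gene among them called whichever of the 14 libraries was left out. Falls outnumbered rises among the 83 genes, but rises outnumbered falls without HET 3 (26 up, 17 down), without WT 7 (9 up, 1 down) and without WT 2 (4 up, 0 down). Without any 1 of HET 1, 2, 4 and 7 and WT 1, 3, 5 and 6 edgeR called 1 or 2 rises and 0 or 1 falls. With the excitatory marker covariate 1 gene at shared peaks was called, Sec24d.

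RNA differences were also set against differences in peak width. Over 10004 genes the Spearman correlation of the log2 width ratio with the log2 fold change was 0.006. In the fifth of genes with the largest ratio (median 1.54) 10 rose and 9 fell, and in the fifth with the smallest ratio (median 0.78) 5 rose and 9 fell. The genes that rose had long annotated exons in sum and moderate levels, with a median exon length of 8298 bases and medians of 17.4 TPM in HET and 13.7 TPM in WT. The genes that fell had a median exon length of 2920.5 bases, with medians of 74.5 TPM in HET and 91.4 TPM in WT. All tested genes at shared peaks had a median exon length of 4489.5 bases. Exon length covers all annotated exons of a gene and is not the length of a single transcript. The part of exon length in the direction was not tested.

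Sec24d, which encodes a cargo-selecting subunit of the COPII coat of vesicles leaving the endoplasmic reticulum, showed the steadiest rise. Its level was 27.2, 24.1, 22.7, 27.8, 25.7, 28.0 and 27.7 CPM in HET 1 to 7, against 12.6, 14.4, 14.9, 17.1, 15.8, 16.0 and 21.0 CPM in WT 1 to 7. Every HET library lay above every WT library. The log2 fold change was 0.71 (SE 0.10, 1.64-fold, adjusted p 0.00364 in edgeR), and over all alternatives it stayed between 0.64 and 0.79. Its promoter peak (chr3:123267116-123267689) was 741 bp wide in HET and 574 bp in WT.

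The 6 rises that follow passed the threshold narrowly. Cfap46, which encodes a protein of the ciliary axoneme, had 6.83 CPM in the lowest, 8.16 in the median and 10.8 in the highest HET library, against 2.77, 4.51 and 6.18 CPM in WT. The groups did not overlap (log2 fold change 0.91, adjusted p 0.0456 in edgeR). Plcxd3, which encodes a protein with a phospholipase C domain, had 11.2, 11.7 and 15.1 CPM in HET, against 5.11, 7.51 and 9.93 CPM in WT, again without overlap (log2 fold change 0.74, adjusted p 0.0352 in edgeR). Its HET peak of 516 bp faced a WT peak of 151 bp. Neat1, the long noncoding RNA that scaffolds paraspeckles, had 59.2, 87.3 and 96.6 CPM in HET, against 42.2, 50.4 and 70.6 CPM in WT. Its groups overlapped (log2 fold change 0.59, adjusted p 0.0466 in edgeR). The glutathione transferase gene Gstt2 (log2 fold change 0.71), the contactin-associated gene Cntnap5b (0.50) and Rfx5, which encodes a factor of MHC class II promoters (0.47), rose with adjusted p of 0.0461 to 0.0499 in edgeR.

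Among the falls, Dusp6, a phosphatase that switches off ERK, had 24.4 CPM in the lowest, 45.8 in the median and 61.4 in the highest HET library, against 45.1, 87.6 and 110 CPM in WT. The lowest WT value was that of WT 4, and the groups overlapped (log2 fold change -0.91, SE 0.20, adjusted p 0.0499 in edgeR). Cx3cl1, the neuronal chemokine whose receptor marks microglia, had 451, 559 and 786 CPM in HET, against 644, 1003 and 1168 CPM in WT. Its log2 fold change was -0.69 (adjusted p 0.0461 in edgeR). Thrb, a thyroid hormone receptor, had 29.7, 46.2 and 48.1 CPM in HET, against 41.9, 72.9 and 92.8 CPM in WT. WT 4 again held the lowest WT value, inside the HET range (log2 fold change -0.75, adjusted p 0.0499 in edgeR). Ephb3, an ephrin receptor, had 13.4, 18.2 and 19.8 CPM in HET, against 15.7, 32.9 and 40.1 CPM in WT (log2 fold change -0.87, adjusted p 0.0420 in edgeR).

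Cebpb, a leucine zipper transcription factor, and Midn, which encodes midnolin, a protein that brings nuclear proteins to the proteasome, separated the genotypes. Cebpb had 4.47, 5.23 and 6.62 CPM in HET, against 6.62, 7.41 and 9.77 CPM in WT, so that the groups touched at the rounded value (log2 fold change -0.54, adjusted p 0.0375 in edgeR). Midn had 52.6, 59.9 and 71.3 CPM in HET, against 72.3, 83.1 and 118 CPM in WT (log2 fold change -0.51, adjusted p 0.0352 in edgeR). The long noncoding RNAs Panct2 (log2 fold change -1.15) and Pantr1 (-0.99) fell most, with adjusted p of 0.0478 and 0.0461 in edgeR. Counting ignored strand, so reads from these RNAs and from overlapping genes on the other strand cannot be told apart. Over all tested genes 0.715% had groups that did not overlap, and at shared peaks 67 genes did, 29 of them called.

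**Figure D4:**
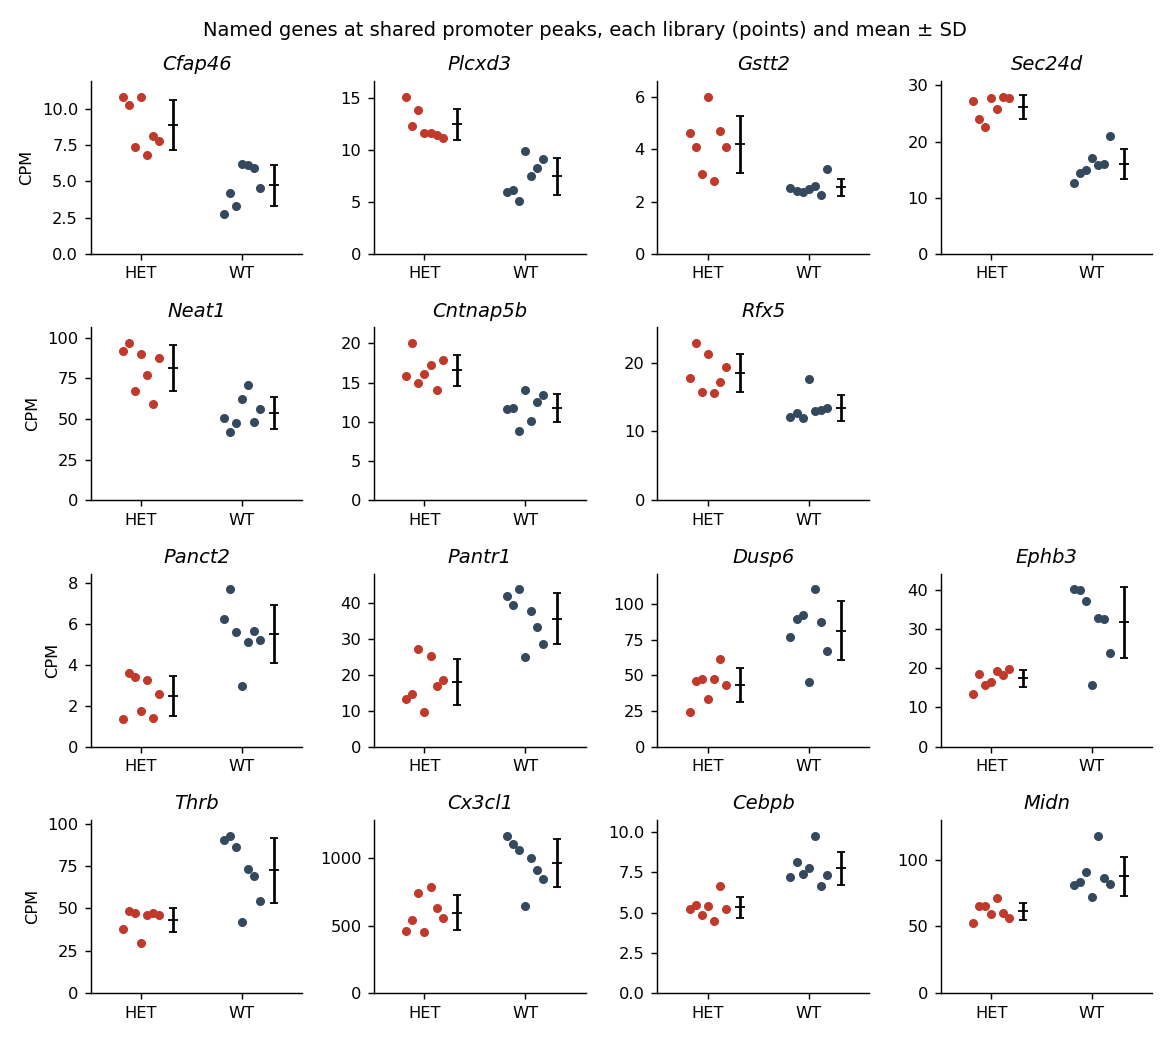
CPM (y axis) of 7 of the largest rises (upper 2 rows) and 8 of the largest falls (lower 2 rows) at shared promoter peaks in each HET and WT library (points, in order of replicate number), with mean and SD over 7 libraries beside them. Sec24d, Cfap46 and Plcxd3 have every HET point above every WT point, while for Dusp6, Thrb and Ephb3 a WT library lies within the HET range.

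The housekeeping machinery had shared peaks at most of its genes and median RNA differences close to 0. A shared promoter peak was found at 66 of 77 ribosomal protein genes, 28 of 31 proteasome genes and 25 of 30 genes of RNA polymerase II and Mediator. For comparison, 10004 of all 18050 tested genes had a shared peak, and 75.6% did in the highest of the 10 groups by WT level. The median log2 fold changes of the 3 lists were -0.03, -0.05 and -0.06. In these lists edgeR called 0 genes at shared peaks, with 5, 5 and 7 at unadjusted p below 0.05 and 1, 2 and 4 called by DESeq2. Ribosomal protein genes have many near-identical pseudogenes, so their counts are uncertain. Over all tested genes 22.2% had an unadjusted p below 0.05, edgeR called 0.970% and DESeq2 called 8.38%. Rplp1, of the ribosomal stalk, stood at 2722 TPM in HET and 2818 TPM in WT. Psmc5, an ATPase of the proteasome cap, stood at 417 TPM in HET and 411 TPM in WT, and Polr2g, a polymerase subunit, at 114 TPM in HET and 116 TPM in WT. The log2 fold change of Psmc5 was -0.05, opposite in sign to its TPM pair, since TPM lacks the scaling of the test.

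Activity-regulated genes, which neurons switch on within minutes to hours of firing, showed the lowest median of the 16 lists. The lists were chosen with earlier results of these data known. A shared promoter peak was found at 20 of 29 activity-regulated genes, against 10004 of all 18050 tested genes. All 20 log2 fold changes of these activity-regulated genes lay below 0, from -1.78 (Arc) to -0.15 (Jund), with a median of -0.79. A single gene, Dusp6, passed edgeR's test, and 13 had an unadjusted p below 0.05. DESeq2 called 9 falls and 0 rises among these 20 genes. The shares over all tested genes, in the same order, were 0.970%, 22.2% and 8.38%. Arc, which regulates AMPA receptor trafficking, had 26.7 CPM in the lowest, 113 in the median and 159 in the highest HET library, against 147, 288 and 621 CPM in WT (adjusted p 0.0721 in edgeR). The transcription factor gene Egr1 had 74.5, 228 and 341 CPM in HET, against 326, 478 and 779 CPM in WT (log2 fold change -1.20, adjusted p 0.0643 in edgeR). Its groups overlapped between the lowest WT and the highest HET library. Without WT 4 both passed, with adjusted p of 0.0314 for Arc and 0.0253 for Egr1 in edgeR. At these promoters the peak of Egr1 measured 1606 bp in HET and 1518 bp in WT, that of Dusp6 674 bp in HET and 684 bp in WT, and that of Arc 607 bp in HET and 1276 bp in WT.

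Excitatory neuron markers at shared peaks also had a median below 0. A shared peak was found at 7 of 14, with a median log2 fold change of -0.63. Among these 7 were 0 calls by edgeR, 2 falls by DESeq2 and 4 at unadjusted p below 0.05. The shares over all tested genes, in the same order, were 0.970%, 8.38% and 22.2%. Nrgn, which binds calmodulin in dendrites, had 86.9, 738 and 1181 CPM in the lowest, median and highest HET library, against 492, 1663 and 2164 CPM in WT (adjusted p 0.136 in edgeR). Camk2a, a kinase of the postsynaptic density, had 671, 1975 and 3423 CPM in HET, against 1748, 3050 and 4051 CPM in WT (adjusted p 0.164 in edgeR). With the excitatory marker covariate the log2 fold change was -1.16 for Arc, -0.75 for Egr1, -0.53 for Dusp6 and -0.13 for Nrgn, and none of these was called (adjusted p from 0.201 to 0.697 in edgeR).

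Genes of Wnt signalling, the cytoskeleton and chromatin remodelling mostly had shared peaks, with 2 calls by edgeR. So did tested genes in general, with a shared peak at 10004 of 18050. In the sixth of the 10 groups by WT level the share was 69.3%, and in the highest 75.6%. Among all tested genes edgeR called 0.970%, DESeq2 called 8.38% and 22.2% had an unadjusted p below 0.05. In the Wnt and beta-catenin list 25 of 38 had a shared peak, with a median log2 fold change of -0.02. EdgeR called 1 of these 25, with 7 at unadjusted p below 0.05, and DESeq2 called 2 rises and 0 falls. Tnks, a poly-ADP-ribose polymerase that marks axin for degradation, rose. It had 134, 145 and 163 CPM in the lowest, median and highest HET library, against 112, 119 and 130 CPM in WT, without overlap (log2 fold change 0.28, adjusted p 0.0352 in edgeR). The other 24 did not pass edgeR's test, among them the beta-catenin kinase Gsk3a (162 TPM in HET, 177 TPM in WT). In the cytoskeleton list 38 of 45 had a shared peak, with a median of -0.09. EdgeR called 1 of these 38, with 12 at unadjusted p below 0.05, and DESeq2 called 5 falls and 0 rises. Arpc3, a subunit of the ARP2/3 complex that branches actin, fell. It had 59.7, 74.4 and 86.7 CPM in HET, against 80.4, 98.8 and 112 CPM in WT, with overlap (log2 fold change -0.41, adjusted p 0.0461 in edgeR). Its promoter peak was 303 bp wide in HET and 537 bp in WT. Among chromatin remodellers 25 of 32 had a shared peak, with a median of -0.01 and 0 calls by edgeR (4 at unadjusted p below 0.05, 2 rises by DESeq2). Smarcc2, a BAF core subunit, stood at 224 TPM in HET and 213 TPM in WT.

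Adnp itself lay at a shared promoter peak (chr2:168206974-168207603) of 662 bp in HET and 630 bp in WT. Its RNA measured 6.90 ± 1.30 CPM in HET, against 6.55 ± 0.87 CPM in WT (SD over 7 libraries), a log2 fold change of 0.07 (SE 0.13, adjusted p 0.772 in edgeR). Since a frameshift can leave the transcript in place, the RNA level is no test of the genotype labels.

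Synaptic genes mostly had shared peaks, with median RNA differences slightly below 0. In the highest of the 10 groups of tested genes by WT level, 75.6% had a shared peak. Shared peaks were found at 16 of 26 postsynaptic and 20 of 25 presynaptic genes. Each list had a median log2 fold change of -0.14 and 0 calls by edgeR. An unadjusted p below 0.05 was found for 5 and 10 of these genes, and DESeq2 called 1 fall in each list. The shares over all tested genes were 0.970% by edgeR, 22.2% at unadjusted p below 0.05 and 8.38% by DESeq2. Snap25, of the vesicle fusion complex, stood at 1064 TPM in HET and 1330 TPM in WT.

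Genes restricted to other cell types seldom had a shared peak, with astrocyte markers the highest among these lists. It was found at 4 of 10 astrocyte markers, 1 of 12 interneuron markers, 1 of 11 oligodendrocyte lineage markers, 2 of 11 microglia markers and 1 of 11 vascular markers, with 0 calls by edgeR among them and 1, 0, 0, 0 and 0 at unadjusted p below 0.05. DESeq2 also called 0 of these markers. Among all tested genes edgeR called 0.970%, 22.2% had an unadjusted p below 0.05 and DESeq2 called 8.38%. The astrocyte glutamate transporter Slc1a2 stood at 464 TPM in HET and 558 TPM in WT, and the oligodendrocyte factor Olig1 at 259 TPM in HET and 230 TPM in WT. Of 36 germline genes 3 had a shared peak and 32 had no promoter peak in either list. Tdrkh, a Tudor-domain protein of the piRNA pathway, stood at 19.9 TPM in HET and 17.1 TPM in WT (adjusted p 0.145 in edgeR). Tdrd5 stood at 1.20 TPM in HET and 0.757 TPM in WT, and 0 of the 3 were called by edgeR, with 2 at unadjusted p below 0.05 and 0 by DESeq2.

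**Figure D5:**
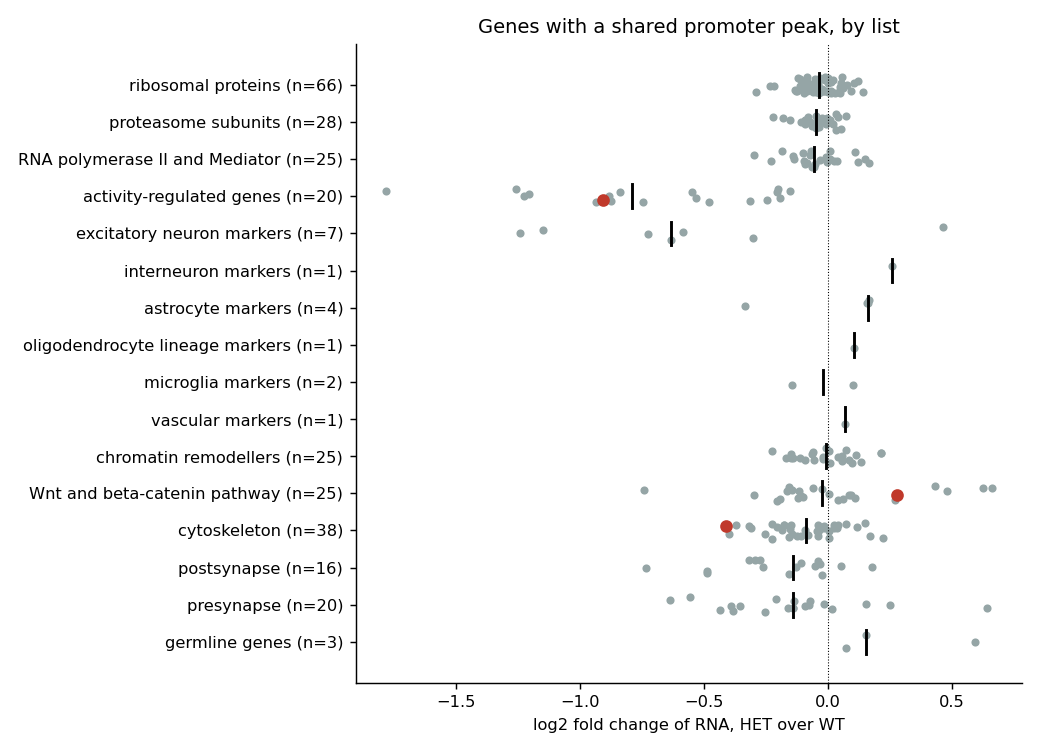
Log2 fold change of RNA, HET over WT (x axis), of each tested gene at a shared promoter peak (points) in 16 gene lists (y axis, number of genes in brackets); large red points passed the test, and black bars are list medians. The 20 activity-regulated genes all lie below 0, with a median of -0.79, and the red points are Dusp6, Tnks and Arpc3.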

How the data were processed

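RNA-seq (7 HET and 7 WT libraries) and the HET and WT ATAC-seq peak lists of mouse frontal cortex were analysed, and the remaining samples (Hi-C, and the PAT and Control ATAC-seq samples) were not used here. For RNA, the deposited values are unnormalised read counts for each gene; per the file headers, featureCounts 2.0.1 counted exons of Ensembl release 102 (GRCm38) with strand ignored. STAR, Trimmomatic and DESeq2 for RNA, and Bowtie2 2.4.4, SAMtools 1.9 and MACS3 for ATAC-seq, were named per the submitters' processing notes. The 2 deposited peak lists give positions alone, on the same build, with libraries merged within a genotype. For the peak lists, the libraries merged were not described beyond the names of the lists. The labels give 3 HET and 3 WT ATAC-seq samples, and the name of each list carries the numbers 1 and 3. These names can be read as 2 libraries or as all 3 of a genotype. The depth of the libraries and the caller settings were not given in the sources used here.

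Each count table held 55487 genes. Genes kept by filterByExpr (18050) were tested in edgeR 4.0.16 after TMM scaling, by the robust quasi-likelihood test of genotype (two-sided), and p-values were adjusted by Benjamini-Hochberg over these genes. CPM values are TMM-scaled, TPM values were computed from counts and exon lengths without TMM scaling, and errors are SD over 7 libraries. Labels call each RNA library a separate mouse. No library looked like a copy of another (91 pairs, chi-square per degree of freedom at least 9.38). The fit was also run on simulated counts in which genes varied independently. That run held no library effects shared between genes, so it cannot speak to the dependence of the calls on single libraries.

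A peak belonged to a gene when it overlapped the window 1 kb either side of the gene start; width ratios use the widest overlapping HET peak. Motifs were searched in RefSeq promoter windows (GRCm38.p6); 6868 of the tested gene symbols at shared peaks matched a window over such a peak. Members, the 16 gene lists and the motifs were chosen with earlier results of these data known. Named were the 8 largest rises and falls among called genes (log2 CPM no lower than 0, without predicted genes), the 2 members of each list with the highest TPM and its called ones, peaks of extreme width, splitting or merging, Adnp, and peaks at the thresholds; 1 rise is not reported here. Alternatives were DESeq2 1.42.0, its size factors, other filters, thresholds, windows and overlaps, a replicate block and each library left out; added after seeing the data were HET 4 and WT 4 both left out and an excitatory marker covariate.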

Additional observations from a re-analysis of the deposited data

Results flagged for a closer look

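Among 128 groups of 7 libraries (the named genes in HET and in WT), 5 had a highest library far from the others by Dixon's ratio (critical value 0.568), and chance gives about 1 in 20. Ccdc148, at the split peak it shares with Pkp4, had 18.5 CPM in WT 2, against 16.2 CPM in the next WT library. Gstt2 had 3.26 CPM in WT 7 and 2.60 CPM in the next WT library. Rfx5 had 17.6 CPM in WT 4, against 13.5 CPM in the next. Midn had 118 CPM in WT 5, against 91.0 CPM in the next. The low RNA 2410080I02Rik, at one of the widest peaks, had 0.870 CPM in HET 3, against 0.442 CPM in the next HET library.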

How the results depend on the processing

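The number of shared promoter peaks stayed between 8260 and 9478 under other overlaps, windows and peak sets. The percent of WT promoter peaks shared was 91.9% with at least 50% of the WT peak covered, 87.4% with reciprocal overlap, 96.1% in windows of 500 bp, 95.1% in windows of 2 kb, 96.0% at starts of tested genes, 90.0% with the widest HET peaks in the number of WT peaks and 93.7% with peaks of at least 300 bp. The median width ratio was 1.08 with at least 50% of the WT peak covered and 1.08 with the widest HET peaks, and stayed between 1.06 and 1.07 otherwise. Split peaks numbered 47, 44, 29 and 34 with 50% covered, reciprocal overlap, the widest HET peaks and peaks of at least 300 bp. Merging HET peaks numbered 0 with reciprocal overlap, 21 in windows of 500 bp and 19 with peaks of at least 300 bp.

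Calls over all tested genes, 175 in edgeR, numbered 1513 with DESeq2 (173 of the 175 among them), 106 without a filter, 10 with the replicate block, 10 with the excitatory covariate, 1198 without HET 4 and WT 4, 1195 at an adjusted p below 0.1 and 11 to 1672 with 1 library left out. At shared peaks, against 83, the same settings gave 802, 39, 3, 1, 652, 653 and 1 to 934. Deviations of same-numbered HET and WT libraries from their genotype means correlated from -0.28 to 0.33, with the highest value for replicate 4. These correlations cannot decide whether the numbers pair the libraries by litter or batch. The split at shared peaks moved from 37 up and 46 down to 14 up and 25 down without a filter, 1 up and 2 down with the replicate block and 224 up and 428 down without HET 4 and WT 4, and it turned to 26 up and 17 down without HET 3, 9 up and 1 down without WT 7 and 4 up and 0 down without WT 2. Of the named genes, 0 of those called by edgeR changed direction under an alternative, while 19 of the 60 that were not called did. With the excitatory covariate the log2 fold change was 0.14 for Pdzrn3, 0.26 for Per2, 0.10 for Pfkp and -0.39 for Olig1, and without HET 4 and WT 4 it was -0.02 for Smarcc2. Over all alternatives the median log2 fold change at shared peaks moved by less than the spread between WT libraries. The causes were not tested. Peak depth, which is unknown, limits the width comparisons.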

Other observations

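Promoter composition of the called genes at shared peaks was as follows. Of the genes that rose 25 matched a RefSeq window, with a median GC content of 67.6% and a median CpG ratio of 0.77. Of the genes that fell 36 matched, with medians of 62.2% and 0.84. A TATA box lay in 1 of the 25 and 5 of the 36 windows, and a CCAAT box in 9 and 18. These sets are small and were not tested.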
